A study of Homo sapiens with 4 samples.

Results

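The genes described here are RANBP3L and its paralogue RANBP3, the BMP SMAD genes SMAD1, SMAD5 and SMAD9, the inhibitory SMAD gene SMAD6, and the ID genes ID1, ID2, ID3 and ID4. They were taken by symbol from a table of 58219 genes, in which all 10 were present, and all 10 passed the filter on low counts that left 16340 genes for testing. RANBP3L was chosen by its measured log2 fold change between carnosine and control in these libraries, the largest rise among genes with a mean count of at least 100, so its values are given as a description without a test. The other 9 were chosen for their roles in the same pathway, with their results known. Libraries came from U87 cells, a line established from a human glioblastoma and sold by ATCC. Cells had been seeded, grown for 24 h, and then kept for 24 h in fresh medium that either held 50 mM carnosine, the dipeptide of beta-alanine and histidine (2 libraries), or did not (2 control libraries). Gene counts summed to between 51632970 and 71766267 per library. The labels do not say that the replicates came from separate cultures, so p-values measure the spread between these libraries, which may be technical.

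Bone morphogenetic proteins (BMPs) bind pairs of type I and type II receptor kinases, which phosphorylate SMAD1, SMAD5 and SMAD9. These receptor-regulated SMADs join SMAD4, enter the nucleus and switch on targets, among them the ID genes and SMAD6, whose product feeds back on the receptors. ID proteins carry a helix-loop-helix but no DNA-binding region, hold E proteins away from DNA, and are known in glioblastoma for their ties to self-renewal. RANBP3 and RANBP3L bind the GTPase RAN and help carry SMADs out of the nucleus: RANBP3 has been described for SMAD2 and SMAD3, and RANBP3L for the BMP SMADs.

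The windows from 250 bases before to 50 bases after the annotated start are shown for the exporter that rose and its paralogue, and for ID1 and ID2, the ID genes with the clearest difference and with none detected. They are RefSeq sequences of GRCh38.p14, at chr5:36301853-36302152 (minus strand) for RANBP3L, chr19:5978091-5978390 (minus strand) for RANBP3, chr20:31605039-31605338 (plus strand) for ID1 and chr2:8681806-8682105 (plus strand) for ID2. Capitals mark matches on either strand to GCCGNC, a GC-rich sequence bound by BMP SMADs, and to GTCT, the SMAD box.
RANBP3L: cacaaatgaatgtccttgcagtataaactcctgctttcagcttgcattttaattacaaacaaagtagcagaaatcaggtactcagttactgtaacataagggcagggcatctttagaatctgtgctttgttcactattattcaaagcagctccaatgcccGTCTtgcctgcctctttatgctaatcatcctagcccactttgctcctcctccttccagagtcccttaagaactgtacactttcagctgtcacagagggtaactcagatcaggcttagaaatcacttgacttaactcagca
RANBP3: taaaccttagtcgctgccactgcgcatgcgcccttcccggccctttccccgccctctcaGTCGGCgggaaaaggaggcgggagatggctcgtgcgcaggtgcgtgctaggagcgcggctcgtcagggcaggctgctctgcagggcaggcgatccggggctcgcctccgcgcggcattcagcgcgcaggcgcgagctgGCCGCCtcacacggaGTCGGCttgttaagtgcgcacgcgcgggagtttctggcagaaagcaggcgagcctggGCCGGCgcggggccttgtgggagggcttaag
ID1: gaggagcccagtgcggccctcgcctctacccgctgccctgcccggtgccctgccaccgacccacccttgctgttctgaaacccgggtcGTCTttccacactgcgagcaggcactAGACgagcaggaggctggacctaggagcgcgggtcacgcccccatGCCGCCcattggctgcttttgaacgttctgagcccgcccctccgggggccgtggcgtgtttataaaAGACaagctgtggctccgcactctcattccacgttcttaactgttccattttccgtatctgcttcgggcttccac
ID2: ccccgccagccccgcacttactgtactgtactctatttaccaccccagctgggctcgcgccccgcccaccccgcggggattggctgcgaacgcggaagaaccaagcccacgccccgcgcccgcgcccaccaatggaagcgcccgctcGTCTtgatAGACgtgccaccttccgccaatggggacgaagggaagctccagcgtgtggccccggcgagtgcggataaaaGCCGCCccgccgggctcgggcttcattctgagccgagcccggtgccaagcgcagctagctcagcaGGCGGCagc
The RANBP3L window had no GCCGNC and 1 GTCT, that of RANBP3 4 and 0, that of ID1 1 and 3, and that of ID2 2 and 2, and in none of these windows did matches to the 2 motifs overlap. Among all 35116 RefSeq windows of this length, 46.7% held GCCGNC and 84.0% held GTCT. The SMAD9 window held 11 matches to GCCGNC and 2 to GTCT. Overlapping matches were counted, and most of the 11 lay within a single run of GCC repeats at the end of that window. The RANBP3L window was 42.3% G and C, and 15.5% of all windows had less. That of RANBP3 was 69.7% and those of the ID genes 59.7% (ID3) to 76.3% (ID4). Each gene but SMAD1 had a single window, and 1 of the 5 windows of SMAD1 resembled that of RANBP3L, with 42.0% G and C and no GCCGNC, while the other 4 had 58.0% to 76.7%. A match is a run of letters and not a measured binding site.

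RANBP3L (ENSG00000164188.8, chromosome 5, 36248434 to 36302114, minus strand, GRCh38) was nearly silent in control cells and moderately expressed in carnosine-treated ones. Its counts were 52 and 25 in control replicates 1 and 2, against 759 and 555 in carnosine replicates 1 and 2. Scaled by library size (CPM), these were 0.731 and 0.426 CPM in controls and 12.6 and 11.02 CPM with carnosine. Both carnosine libraries lay far above both controls, and the controls differed from each other by a ratio of 1.72. The fitted log2 fold change was 4.33 ± 0.27 (SE, n = 2 each), and leaving out each library in turn gave 4.01 (without control replicate 2) to 4.78 (without control replicate 1). By fitted fold change RANBP3L ranked 11 of 16340 genes tested, behind genes that had 0 or 1 count in each control, and 1 of the 11967 genes with a mean count of at least 100. The next gene in that narrower ranking, KCNE4, had a log2 fold change of 3.76.

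**Figure D1:**
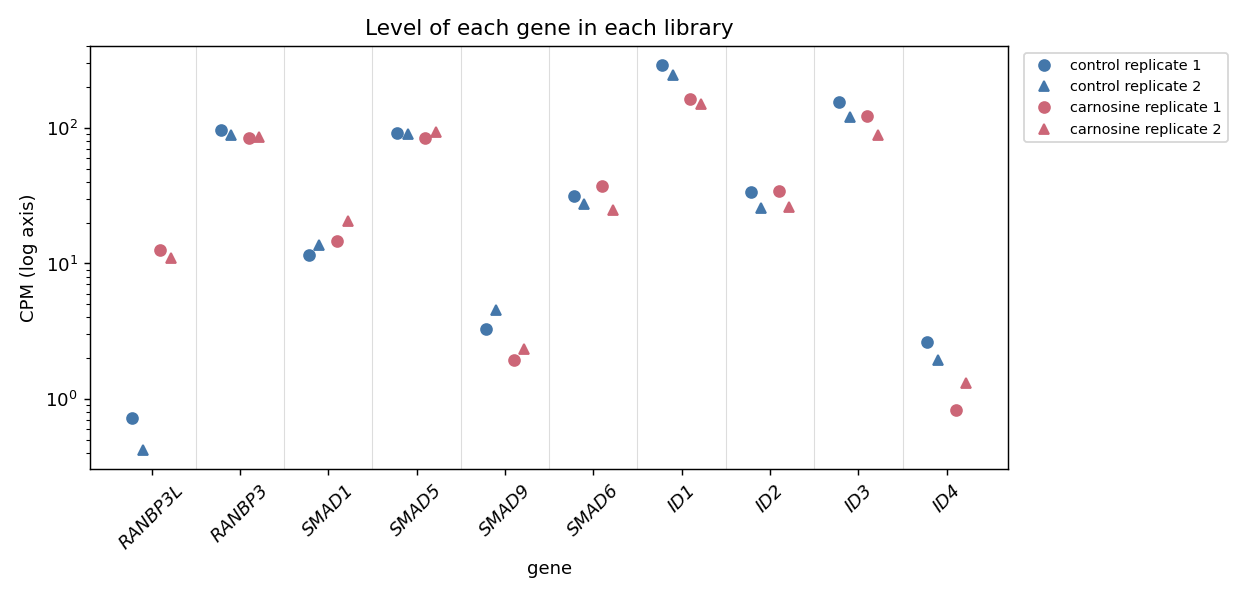
CPM of the 10 genes in each of the 4 libraries on a log axis, with circles for replicate 1 and triangles for replicate 2, controls in blue and carnosine in red. RANBP3L, which was chosen for its rise in this contrast, is the gene whose groups lie farthest apart. It lies at 0.426 to 0.731 CPM in controls and 11.02 to 12.6 CPM with carnosine, while most other genes overlap or lie close.

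RANBP3 (chromosome 19, 5916139 to 5978142, minus strand), the paralogue that acts on SMAD2 and SMAD3, was expressed in every library. Controls had 96.1 and 88.3 CPM, and carnosine libraries 83.9 and 86.1 CPM. The carnosine libraries lay just below the controls, and the difference did not pass the test (log2 fold change -0.12 ± 0.10 SE, n = 2 each, 95% interval -0.35 to 0.11, adjusted p = 0.491, edgeR's quasi-likelihood test). The balance of the paralogues shifted through RANBP3L, the gene chosen for its rise, so the shift is a description. Per kilobase of annotated exon, the RANBP3 level was 59.3 and 93.6 times that of RANBP3L in the control libraries, and 3.004 and 3.53 times with carnosine. RANBP3L thus made up 1.66% and 1.06% of their summed level in controls and 25.0% and 22.1% with carnosine. The ratio depends on the length used: with the longest transcript of each gene, RANBP3 was 126.1 and 199.0 times and then 6.39 and 7.50 times as high.

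On the same scale, CPM per kilobase of exon, ID1 and ID3 were the most abundant of the 10 genes in both groups, at 215.5 ± 26.5 and 76.3 ± 12.8 in controls (SD, n = 2). ID2 (13.4 ± 2.58) and RANBP3 (12.4 ± 0.73) followed, and their control libraries overlapped. SMAD5 came next (10.0 ± 0.15), then SMAD6 (3.43 ± 0.30), SMAD1 (2.07 ± 0.23), ID4 (0.985 ± 0.211), SMAD9 (0.688 ± 0.156) and RANBP3L (0.172 ± 0.064). With carnosine the other 9 kept this order of means, and the place of RANBP3L differed. It reached 3.51 ± 0.34, between SMAD6 (3.62 ± 1.05) and SMAD1 (2.91 ± 0.71), and its libraries overlapped with theirs. ID4 (0.457 ± 0.145) and SMAD9 (0.375 ± 0.049) were lowest and overlapped. These places depend on the length used. Per kilobase of the longest transcript, RANBP3 moved from place 4 to place 3 in both groups, and RANBP3L with carnosine from place 7 to place 8. On that scale its carnosine libraries (4.07 and 3.55) lay below those of SMAD1 (4.43 and 6.27).

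Among the BMP-regulated SMADs, SMAD5 (chromosome 5, 136132845 to 136188747) was the main form. Controls had 91.7 and 89.8 CPM, and carnosine libraries 83.5 and 92.7 CPM. The groups overlapped, and the log2 fold change was -0.04 ± 0.10 (SE, 95% interval -0.28 to 0.20, adjusted p = 0.831, edgeR), which turned to 0.03 without carnosine replicate 1. SMAD1 (chromosome 4, 145481194 to 145558079) had 11.6 and 13.6 CPM in controls and 14.6 and 20.6 CPM with carnosine. Both carnosine libraries lay above both controls, but carnosine replicate 1 lay close to control replicate 2. The log2 fold change of 0.49 ± 0.19 did not pass (95% interval 0.04 to 0.93, adjusted p = 0.153, edgeR). Without carnosine replicate 1 it was 0.71 with an adjusted p of 0.0341, and without carnosine replicate 2 it was 0.21. The adjusted p of SMAD1 ran from 1.50e-04 to 0.464 over all 12 other settings.

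SMAD9 (chromosome 13, 36844831 to 36920765), the third of these SMADs, was the scarcest. It had 235 and 268 counts in controls and 117 and 118 with carnosine, or 3.31 and 4.57 CPM against 1.95 and 2.34 CPM. Both carnosine libraries were below both controls. The log2 fold change was -0.88 ± 0.25 (95% interval -1.48 to -0.28) and did not pass in edgeR (adjusted p = 0.0791), while DESeq2 gave an adjusted p of 0.0403. Over the 12 other settings its adjusted p ran from 2.91e-04 to 0.371 and its log2 fold change from -1.10 to -0.63. The summed level of these 3 SMADs per kilobase showed no separation, at 12.63 and 12.97 in controls and 11.98 and 14.07 with carnosine. Within that sum SMAD1 held 15.1% and 17.3% in controls against 20.1% and 24.2%, and SMAD9 4.57% and 6.16% against 2.84% and 2.91%. No test was made of these shares, for which an exact permutation test of 2 libraries against 2 could give no p below 0.333.

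SMAD6 (chromosome 15, 66702228 to 66782848), the inhibitor that BMP signalling induces, had 31.2 and 27.5 CPM in controls and 37.3 and 24.6 CPM with carnosine. The carnosine libraries bracketed the controls and differed 1.52-fold from each other. The log2 fold change was 0.08 ± 0.19 (95% interval -0.38 to 0.54, adjusted p = 0.842, edgeR). Its sign was not stable, with -0.26 without carnosine replicate 1 and 0.34 without carnosine replicate 2.

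ID1 (ENSG00000125968.8, chromosome 20, 31605283 to 31606515, plus strand, GRCh38) was the gene that passed the test among the 9 besides RANBP3L, and it fell. Counts were 20539 and 14233 in controls and 9756 and 7561 with carnosine, which came to 289 and 243 CPM against 162 and 150 CPM. Every carnosine library lay below every control, with a wide gap between the groups. ID1 was 1.70-fold lower with carnosine (log2 fold change -0.77 ± 0.12 SE, n = 2 each, adjusted p = 0.0203, edgeR). The call ended without control replicate 1 (log2 fold change -0.64, adjusted p = 0.0668) and held in the other 11 settings, where the adjusted p ran up to 0.0286.

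ID3 (chromosome 1, 23557918 to 23559794), which binds the same E proteins, had 153.4 and 120.9 CPM in controls and 121.3 and 88.3 CPM with carnosine. Carnosine replicate 1 sat at the level of control replicate 2, so the groups overlapped. The log2 fold change was -0.39 ± 0.18 (95% interval -0.82 to 0.04, adjusted p = 0.221, edgeR). It was -0.64 without carnosine replicate 1, with an adjusted p of 0.0466, and -0.18 without carnosine replicate 2, and the adjusted p ran from 2.98e-05 to 0.650 over the other settings.

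ID2 (chromosome 2, 8678845 to 8684453), the ID protein known to bind the retinoblastoma protein as well, had 33.5 and 25.5 CPM in controls and 34.4 and 26.1 CPM with carnosine. The groups overlapped almost fully, with a log2 fold change of 0.04 ± 0.18 (95% interval -0.39 to 0.46, adjusted p = 0.920, edgeR). Its sign changed with the library left out, from -0.18 without carnosine replicate 1 to 0.25 without control replicate 1. ID2-AS1, an antisense gene that shares 38 exonic bases with ID2, had 24 to 42 counts per library, against 1313 to 2382 for ID2.

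ID4 (chromosome 6, 19837386 to 19840684), the least abundant ID gene, had 189 and 115 counts in controls and 50 and 66 with carnosine, or 2.66 and 1.96 CPM against 0.831 and 1.31 CPM. Both carnosine libraries were below both controls. The log2 fold change was the largest of the 9 in size, at -1.12 ± 0.33, but with these counts its 95% interval reached from -1.91 to -0.32, and the adjusted p was 0.0866 in edgeR and 0.0485 in DESeq2. Without carnosine replicate 2 it was -1.48 (adjusted p = 0.0442), and over the 12 other settings the adjusted p ran from 3.34e-04 to 0.334. The antisense gene AL022068.1, which overlaps the ID4 locus without shared exonic bases and was singled out after its values were seen, had 64 and 47 counts in controls and 18 and 16 with carnosine (log2 fold change -1.46 ± 0.40, adjusted p = 0.0676, edgeR).

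Summed per kilobase of exon, the 4 ID genes came to 336.0 and 276.4 in controls and 215.0 and 183.3 with carnosine. ID1 made up 69.7% and 71.2% of that sum in controls and 61.2% and 66.4% with carnosine. The share of ID2 was 4.52% and 4.18% in controls against 7.26% and 6.45%, higher in both carnosine libraries. ID3 held 25.4% and 24.3% in controls and 31.4% and 26.8% with carnosine, and ID4 0.165% to 0.338% over all libraries. The level of ID1 was therefore 15.4 and 17.0 times that of ID2 in controls and 8.42 and 10.3 times with carnosine.

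**Figure D2:**
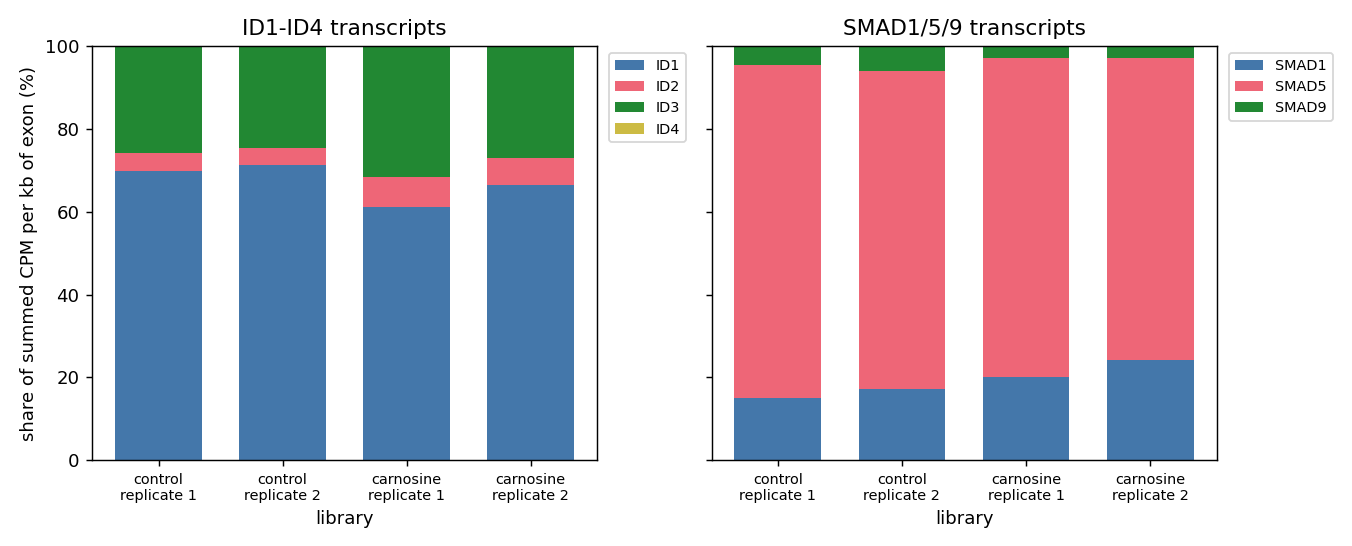
Stacked bars of the share (%) each gene takes of the summed CPM per kilobase of exon in each library, for ID1 to ID4 (left) and for SMAD1, SMAD5 and SMAD9 (right). ID1 takes 61.2% and 66.4% in the carnosine bars and 69.7% and 71.2% in the control bars, and the SMAD1 share is higher and the SMAD9 share lower in both carnosine libraries than in both controls.

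In all, 1 of the 9 genes besides RANBP3L passed the test, against 8.31% of all genes tested, so the share called is near the background. In 5 of the 9 both carnosine libraries lay on the same side of both controls (SMAD1 above, and RANBP3, SMAD9, ID1 and ID4 below), against 56.5% of all genes tested. At an unadjusted p under 0.05 there were 4 of the 9, against 27.4% of all genes tested. The median log2 fold change of the 9 was -0.12, and that of all genes tested was 0.00090. DESeq2 called ID1, SMAD9 and ID4, and 15.3% of the 14439 genes to which it gave an adjusted p. In bulk libraries a change in the number of cells that express a gene and a change in its RNA per cell cannot be told apart.

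**Figure D3:**
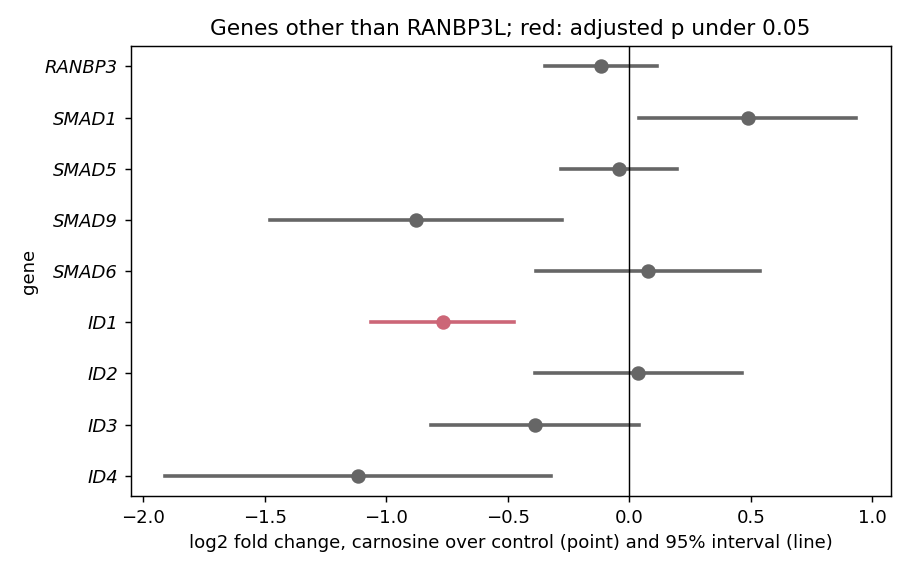
Log2 fold change of the 9 genes besides RANBP3L (points) with 95% intervals from edgeR's quasi-likelihood fit (lines), with ID1, the gene past the threshold, in red. ID1, ID4 and SMAD9 have intervals below 0 and SMAD1 an interval above 0, before adjustment over all genes, and the intervals of the other 5 include 0.

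**Figure D4:**
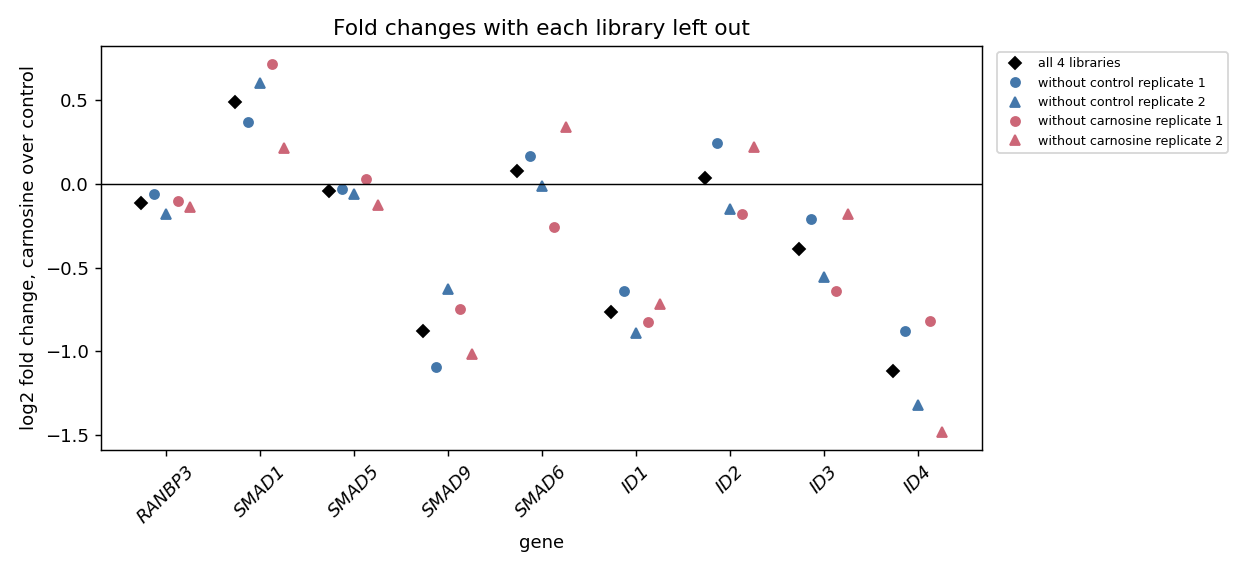
Log2 fold change of the same 9 genes with all 4 libraries (black diamonds) and without each library in turn (controls blue, carnosine red). ID1 stays between -0.89 and -0.64, while SMAD5, SMAD6 and ID2 lie on both sides of 0.

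Other genes of BMP signalling, 103 in 8 lists by role (SMAD7, BAMBI and NOG are in 2 lists each), were scored in the same fit. Of these, 77 could be tested, 5 rose and 3 fell, and the median log2 fold change was 0.09. Higher calls made up 3.95% and lower calls 4.36% of all genes tested in edgeR, and DESeq2 called 15.3%. These shares are the background for the counts of each list below. At an unadjusted p under 0.05 in edgeR there were 26 of the 77, against 27.4% of all genes tested.

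The ligand GDF5, a growth factor of joint and cartilage formation that signals through BMP receptors, rose. It had 15.4 and 14.2 CPM in controls and 31.7 and 26.2 CPM with carnosine (log2 fold change 0.97 ± 0.13, adjusted p = 0.0159, edgeR). Both carnosine libraries were well above both controls. It was the 1 of 5 tested ligands to pass, and 10 of the 15 on the list were too low to test, including BMP4 and BMP7. BMP2 had 8.26 and 9.75 CPM in controls and 8.26 and 8.74 CPM with carnosine. The opposite-strand gene GDF5OS shares 35.2% of the exonic bases of GDF5 and had 0 counts in every library.

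Of 8 tested receptors and co-receptors 2 rose. BMPR1B, a type I receptor that GDF5 binds, had 3.47 and 3.15 CPM in controls and 6.65 and 6.85 CPM with carnosine (log2 fold change 1.03 ± 0.17, adjusted p = 0.0223, edgeR). ACVR1, the type I receptor ALK2, had 39.7 and 36.3 CPM in controls and 53.1 and 54.0 CPM with carnosine (0.49 ± 0.10, adjusted p = 0.0317). In both genes the groups were apart. The call of BMPR1B ended without control replicate 2 (adjusted p = 0.0751), and that of ACVR1 without control replicate 1 (0.0826) or control replicate 2 (0.199). BMPR1A had a log2 fold change of 0.11 and BMPR2 one of 0.16, and neither passed.

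On the list of secreted inhibitors and the decoy receptor BAMBI, none of the 11 genes tested passed in edgeR, and BAMBI itself was too low to test. Of the 11, 2 had an unadjusted p under 0.05, against 27.4% of all genes tested. DESeq2 called 1 and limma-voom 0. The median log2 fold change of all 11 was 0.48, and 9 lay above 0. Some of these 9 had few counts, such as NOG (4 to 23 per library) and GREM1 (5 to 14). The members with the most counts, FSTL1 and TWSG1, had log2 fold changes of 0.09 and 0.20. None of the 4 other SMADs passed in edgeR (1 at an unadjusted p under 0.05, against the same 27.4%, 0 in DESeq2 and 0 in limma-voom). SMAD2, a partner of RANBP3, had 80.0 and 76.7 CPM in controls and 86.9 and 98.2 CPM with carnosine (0.24 ± 0.10, adjusted p = 0.193). SMAD3 had a log2 fold change of 0.13 ± 0.16, which turned to -0.04 without control replicate 2 and -0.01 without carnosine replicate 1.

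Of the 15 SMAD regulators 1 rose and 2 fell. TOB1, an antiproliferative protein that holds back BMP SMADs, had 12.9 and 11.2 CPM in controls and 23.8 and 24.3 CPM with carnosine (0.99 ± 0.12, adjusted p = 0.0123, edgeR). SMURF2, a ubiquitin ligase for SMADs and their receptors, had 39.9 and 51.5 CPM in controls and 24.7 and 29.2 CPM with carnosine (-0.76 ± 0.15, adjusted p = 0.0325). CTDSPL, a small phosphatase, had 51.6 and 46.3 CPM in controls and 37.0 and 34.0 CPM with carnosine (-0.46 ± 0.11, adjusted p = 0.0449). In these 3 genes the carnosine libraries did not overlap with the controls. The call of SMURF2 ended without control replicate 2 (0.105), and that of CTDSPL with scaling by total counts (0.0763) and without control replicate 1 (0.238), control replicate 2 (0.0945) or carnosine replicate 2 (0.0873).

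For the machinery that RANBP3L would share, the exportin XPO1 (CRM1), RAN and its cofactors and the SMAD importins, 0 of 11 passed in edgeR. There were 5 at an unadjusted p under 0.05, against 27.4% of all genes tested, 2 called by DESeq2, against 15.3%, and 1 by limma-voom, against 8.09%. The median log2 fold change was -0.28, 10 of 11 lay below 0, and in 8 both carnosine libraries were below both controls, against 28.8% of all genes tested. RAN, the GTPase itself, had 598 and 623 CPM in controls and 470 and 528 CPM with carnosine (-0.29 ± 0.12, adjusted p = 0.163). KPNB1, or importin beta, had 0.04 ± 0.11, which turned to -0.03 without carnosine replicate 2.

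Of 15 tested further BMP targets 1 rose. RUNX2, the osteoblast transcription factor, had 16.9 and 14.7 CPM in controls and 39.6 and 27.6 CPM with carnosine (1.09 ± 0.18, adjusted p = 0.0216, edgeR). Its carnosine libraries were both above the controls but differed from each other more than the controls did. Of the 15 targets 10 lay above 0 and 5 below, with a median log2 fold change of 0.35. At an unadjusted p under 0.05 in edgeR there were 7, against 27.4% of all genes tested. Both carnosine libraries were above both controls in 7 and below them in 2, against 27.8% and 28.8% of all genes tested. SMAD7, an inhibitory SMAD like SMAD6, had 0.36 ± 0.13 (adjusted p = 0.130). Among 10 tested partners of ID proteins, USP1, the deubiquitinase known to stabilise ID proteins, fell. It had 89.9 and 88.2 CPM in controls and 62.3 and 61.7 CPM with carnosine (-0.52 ± 0.09, adjusted p = 0.0234), a call that ended without control replicate 1 (0.0972) or control replicate 2 (0.0918). The E proteins TCF3, TCF4 and TCF12 had log2 fold changes of -0.02, 0.16 and 0.15, and none of them passed. The calls of GDF5, TOB1 and RUNX2 held in each of the 12 other settings.

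**Figure D5:**
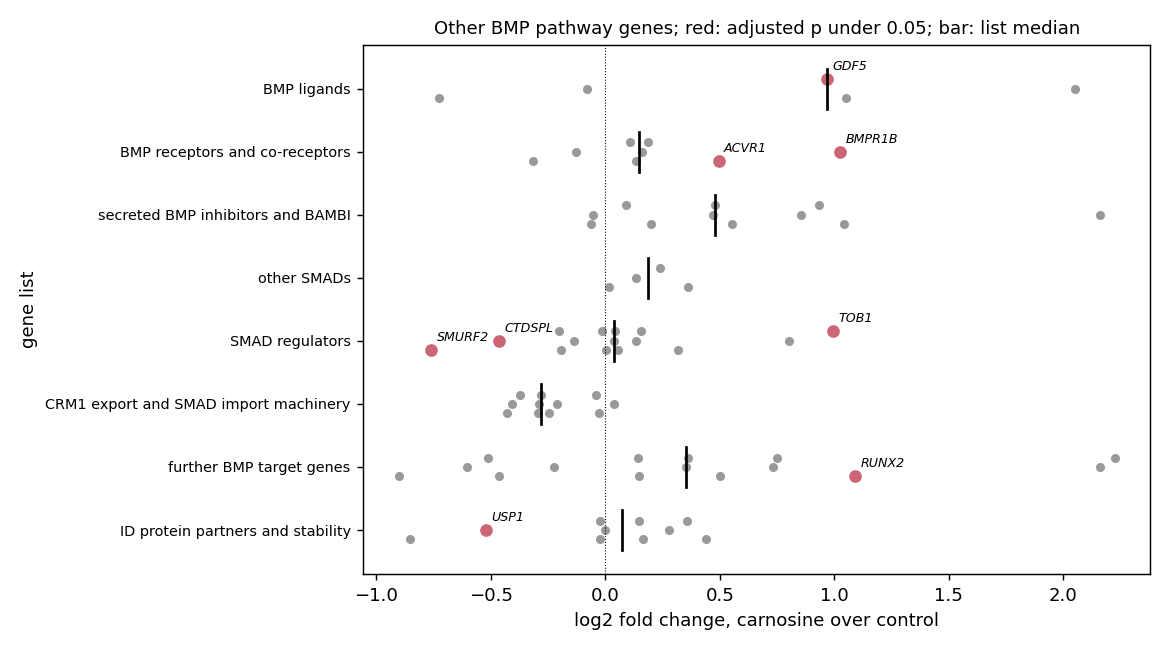
Log2 fold change of each tested gene of the 8 lists (points), with genes at an adjusted p under 0.05 in red and named, and the list median as a vertical bar. The 5 rises and 3 falls are spread over 5 lists, and the export and import machinery has its median at -0.28.

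The genes on either side of the RANBP3L locus are described as well. NADK2, which encodes a mitochondrial NAD kinase, lies 6.15 kb away on the side of lower coordinates, on the minus strand like RANBP3L. It had 27.8 and 27.4 CPM in controls and 33.7 and 35.3 CPM with carnosine (0.32 ± 0.10, adjusted p = 0.0918, edgeR). SKP2, a ubiquitin ligase subunit 64.1 kb away, fell from 90.0 and 84.2 CPM to 60.4 and 67.3 CPM (log2 fold change -0.45 ± 0.10, adjusted p = 0.0451), a call lost without control replicate 1 (0.204), control replicate 2 (0.130) or carnosine replicate 1 (0.107). On the other side SLC1A3, a glial glutamate transporter 304.2 kb away, rose from 70.2 and 85.0 CPM to 137.5 and 188.3 CPM (1.07 ± 0.17, adjusted p = 0.0203). NIPBL, a cohesin loader beyond it, had 0.18 ± 0.10 (adjusted p = 0.294). Of these neighbours SKP2 lay below 0, and NADK2, SLC1A3 and NIPBL lay above 0. RANBP3L was chosen for the largest rise, so its larger log2 fold change of 4.33 was fixed by that choice. A shared shift of the locus was not tested.

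The 5 genes whose profile over the 4 libraries was nearest to that of RANBP3L were KCNE4, ZDHHC11, PARN, GALNT15 and GRIN2A. Nearness was the distance between log2(CPM + 0.1) values centred on each gene's controls, from 0.796 for KCNE4 to 2.37 for GRIN2A, over genes with a mean count of at least 100. KCNE4, a potassium channel subunit, had 0.886 and 0.375 CPM in controls and 10.3 and 7.17 CPM with carnosine. ZDHHC11, a protein acyltransferase, had 0.619 and 0.528 CPM in controls and 6.37 and 4.33 CPM with carnosine, at a distance of 1.71, and shares 222 exonic bases with BRD9, a gene with 2598 to 6330 counts per library. Because the contrast fixed this choice, their rise is a description.

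As a check of the cell line, 6 of 6 mesenchymal and neural markers of glioblastoma lines were detected (VIM, NES, CD44, CHI3L1, TNC and S100A6). Their summed level was 10981 to 12315 CPM per library, with VIM as the largest part at 5583 to 7420 CPM. CHI3L1 rose from 115.8 and 118.7 CPM to 175.4 and 168.9 CPM (0.55 on the log2 scale, adjusted p = 0.0243, edgeR), and the others did not pass. Of 5 astrocyte markers AQP4 and S100B had 0 counts in every library and GFAP stood at 0.0682 to 0.278 CPM, while SLC1A3 was expressed. The summed level of the astrocyte list was 70.4 and 85.1 CPM in controls and 137.6 and 188.6 CPM with carnosine, nearly all of it SLC1A3. Of the endothelial markers CDH5 was at 0 in every library and PECAM1 rose from 2.08 and 2.61 CPM to 6.07 and 5.26 CPM (1.28 on the log2 scale, adjusted p = 0.0215, edgeR), so that the summed list went from 2.28 and 2.90 CPM to 6.77 and 5.54 CPM. Immune markers summed to under 1 CPM, at 0.366 to 0.894 CPM, with AIF1 and CD3E at 0. Neuronal markers summed to 19.5 to 27.6 CPM. Of these RBFOX3 and STMN2 were at 0, while SYT1 and SNAP25 were expressed. SYT1 had 9.56 and 10.7 CPM in controls and 11.2 and 10.5 CPM with carnosine. SNAP25 had 18.0 and 14.6 CPM in controls and 11.5 and 9.02 CPM with carnosine (adjusted p = 0.0625, edgeR). Oligodendrocyte markers summed to 0.102 to 0.266 CPM with MOG at 0. The part of these markers in the changes of RANBP3L and ID1 was not tested.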

How the data were processed

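Per the labels' protocols, stranded libraries of total RNA without ribosomal RNA were sequenced together with paired reads of 101 bases. The authors deposited raw counts per gene as whole numbers, without normalization. The submitters' processing notes name HISAT2 2.1.0, HTSeq 0.6.1, bcl2fastq 2.17.0 and the build hg38. No source used here gives the annotation release, the strand setting or the handling of reads with several matches, which bears on overlapping genes.

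Columns were matched to samples by title, and 0 columns belonged to other samples. Genes were kept by filterByExpr (a minimum count of 10), scaled by TMM (factors 0.976 to 1.04) and tested with edgeR 4.0.16 in R 4.3.3 by its two-sided quasi-likelihood test with a term for group, leaving 2 residual degrees of freedom. P-values were adjusted by Benjamini and Hochberg's method over the 16340 genes, with a threshold of 0.05. The SE is the log2 fold change over the square root of F, and 95% intervals come from it, so both are approximate. CPM uses the scaled library sizes. Exon lengths and positions come from GENCODE 29 (GRCh38), which 57836 of the table's genes matched by identifier, and promoter windows from RefSeq (GRCh38.p14), which held all 10 genes. The fitting script was tested on simulated counts, in which edgeR made 113 calls, 12 of them false. It recovered 18.3% of the changes of 1.5-fold, 49.3% of those of 2-fold and 88.7% of those of 4-fold. The simulation changed 71 genes by 1.5-fold, 67 by 2-fold and 62 by 4-fold. This is a smaller share of the 16340 genes than the 8.31% called in the data, so its rates need not hold for this contrast. The share of false calls was above the threshold of 0.05. A gene that did not pass may therefore still have changed, and a gene that passed may be a false call. Replicates were not copies (chi-square of their counts 25.7 times its degrees of freedom for controls, 39.7 times for carnosine).

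The genes, the lists and the rules were chosen with earlier results of these data known. Named were the 10 genes, up to 4 passing members of each list by size of change or else the 2 with the most counts, the 5 nearest profiles to RANBP3L, and 2 coding neighbours on each side. BMP2, BMP4, BMP7, BMPR1A, BMPR2, BAMBI, NOG, GREM1, XPO1, SMAD7, the E proteins and AL022068.1 lie outside that rule. Alternatives were other scalings, filters and tests (DESeq2 1.42.0, limma-voom 3.58.1), a replicate term, leaving out each library, and another gene length.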

Additional observations from a re-analysis of the deposited data

How the results depend on the processing

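Over the 12 other settings, RANBP3L had log2 fold changes of 4.01 to 4.78. Of 108 refits of the other 9 genes, 89 kept direction and side of the threshold, 13 newly passed, 1 no longer passed (ID1 without control replicate 1) and 5 changed sign, each with 1 library left out. These were SMAD5, SMAD6 and ID2, and beyond the 9 also SMAD3 and KPNB1. With 1 library left out, the log2 fold change of SMAD5 ranged from -0.12 to 0.028, of SMAD6 from -0.26 to 0.34, of ID2 from -0.18 to 0.25, of SMAD3 from -0.041 to 0.33 and of KPNB1 from -0.029 to 0.10. Without a filter on low counts 3145 of 26103 genes were called (1514 higher, 1631 lower), with 5 of the 9 genes and 21 of 89 pathway genes. DESeq2 called 2211 genes (1033 higher, 1178 lower), or 15.3% of the 14439 with an adjusted p. These held 3 of the 9 and 13 of the 77 pathway genes, and the cause was not tested. A replicate block, with the number in the titles as a term, called 5767 of 16340 genes (2771 higher, 2996 lower). These held 5 of the 9 (ID1, ID3, ID4, SMAD1 and SMAD9) and 38 of 77 pathway genes. In these settings more genes were called among all genes as well as among the 9 and the pathway genes. In the fits without a filter and with the block the estimated prior degrees of freedom were infinite, against 4.92, so that single genes kept no variance of their own. The labels do not say that the numbers pair libraries. Across the genes tested, the log2 differences between replicates 1 and 2 correlated at 0.31 between the groups. With 2 pairs of libraries this does not decide whether the numbers pair them. With 1 library left out, its group's remaining library was assumed to vary like the other group. Calls then ranged from 505 to 1595 over all genes (235 to 729 higher, 270 to 866 lower), with 635 without control replicate 1 and 505 without control replicate 2. They ranged from 0 (without control replicate 1) to 3 (without carnosine replicate 1) over the 9, with 2 without carnosine replicate 2, and from 3 (without control replicate 2) to 11 over pathway genes. With the longest transcript as length, levels per kilobase moved by more than the replicate SD for RANBP3, SMAD1, SMAD5, SMAD6 and ID3. Counts of 50 to 268 per library limit ID4 and SMAD9.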

Other observations

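Replicates of a group differed in a way that several of the genes shared. ID1, ID2, ID3 and SMAD6 were higher in replicate 1 than in replicate 2 in both groups, by ratios of 1.13 (SMAD6) to 1.32 (ID2) in controls and 1.08 (ID1) to 1.52 (SMAD6) with carnosine. SMAD1 and SMAD9 were lower in replicate 1 in both groups, by ratios of 0.852 and 0.724 in controls and 0.707 and 0.830 with carnosine. RANBP3L was also higher in replicate 1 in both groups. ID4 did not follow, with 1.36 in controls and 0.634 with carnosine. RANBP3 and SMAD5 did not follow either, and like ID4 were higher in replicate 1 in controls and lower in it with carnosine. Over all genes tested, the log2 differences between replicates 1 and 2 correlated at 0.31 between the groups, so a shared direction was not particular to these genes. How many of all genes had the same direction in both groups was not counted. Of all genes tested, 12.7% differed more between the carnosine libraries than SMAD6, 19.5% more than ID3 and 69.5% more than ID1. The difference was thus among the larger ones for SMAD6 and ID3, and of a common size for ID1.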
